A study of Solanum lycopersicum with 18 samples.

Results

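The anthocyanin glutathione S-transferase (GST) Solyc02g081340 and the MATE transporter Solyc03g025190 are tomato (Solanum lycopersicum) genes tied to the last stage of anthocyanin production, the delivery of the finished pigment to the vacuole. They were taken by identifier, as 2 of the 5295 features in the authors' deposited table of fold changes. The study introduced a system that expresses the snapdragon genes Rosea1, which encodes a MYB protein, and Delila, which encodes a bHLH protein, when dexamethasone (DEX) is supplied. Proteins of these families act together to switch on pigment genes. DEX is a synthetic glucocorticoid with no counterpart in the plant. Callus, an unorganised mass of dividing cells kept on medium, and roots were each sampled uninduced and at 3 h and 24 h after DEX at 10 mg/L, in 6 groups of 3 libraries. The uninduced samples carry the same transgene system, and no group is labelled as given DEX without it, so an effect of DEX itself and one of the regulators cannot be told apart.

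Anthocyanins are assembled at the endoplasmic reticulum and stored in the vacuole, where the acidic sap gives them their colour. Plants that lose a particular class of GST, such as AN9 in petunia, TT19 in Arabidopsis and Bz2 in maize, make the pigment but fail to accumulate it properly. These proteins are thought to bind flavonoids and escort them rather than to conjugate them with glutathione. MATE (multidrug and toxic compound extrusion) proteins are membrane carriers that exchange a substrate for protons, and MATE members such as TT12 in Arabidopsis move flavonoid glycosides across the vacuolar membrane. The table describes Solyc02g081340 as a glutathione S-transferase whose best match is a petunia protein. Solyc03g025190 carries the generic name of a bacterial multidrug resistance protein, mdtK, with a MatE domain. The prefixes of the identifiers place the GST on chromosome 2 and the MATE gene on chromosome 3. Coordinates are left out, as the files state no genome build.

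Each value is the authors' fold of DEX-treated over uninduced samples of the same tissue, with the uninduced samples read as the reference because the transgenes stood far above 1 in all comparisons. Features entered the table at a false discovery rate of 0.05 and a fold of 2 in at least 1 comparison, as its name states. Values per library, counts and p-values were not analysed here, so the depth and the spread between replicates are unknown. A feature is called higher or lower at a fold of 2 or more, and a test over samples could not be made for any difference. In bulk tissue more RNA per cell and more cells with the RNA cannot be told apart.

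Both genes were higher in all 4 comparisons. Among all 5295 features, 27.8% were higher in callus at 3 h, 18% in callus at 24 h, 31.3% in roots at 3 h and 11.7% in roots at 24 h, and 4.17% were higher in all 4. The lower features made up 23.4%, 21.5%, 44.6% and 21.9% in the same order. The GST stood at 1726-fold in callus at 3 h, 2344-fold in callus at 24 h, 7401-fold in roots at 3 h and 8260-fold in roots at 24 h by the authors' deposited table. The MATE gene stood at 305-fold, 2176-fold, 8993-fold and 48796-fold in the same order by the authors' deposited table. The GST was thus within a narrow span inside each tissue, while the MATE gene was lowest in callus at 3 h and highest in roots at 24 h. On the log2 scale the GST spanned 10.75 to 13.01 and the MATE gene 8.25 to 15.57.

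Few features reached this range. Folds of at least 1000 were held by 3 features in callus at 3 h, 9 in callus at 24 h, 6 in roots at 3 h and 11 in roots at 24 h, or 0.0567%, 0.17%, 0.113% and 0.208% of the 5295. The GST was among them in all 4 comparisons and the MATE gene in 3, the exception being callus at 3 h. In the order of folds the GST was in place 3, 5, 2 and 4 in callus 3 h, callus 24 h, root 3 h and root 24 h. The MATE gene was in place 8, 6, 1 and 1. In roots at 3 h the pair held the 2 highest folds of that comparison. A fold this large rests on an uninduced level that may be close to 0 and that the table does not show, so the order of folds is not an order of transcript levels after DEX.

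**Figure D1:**
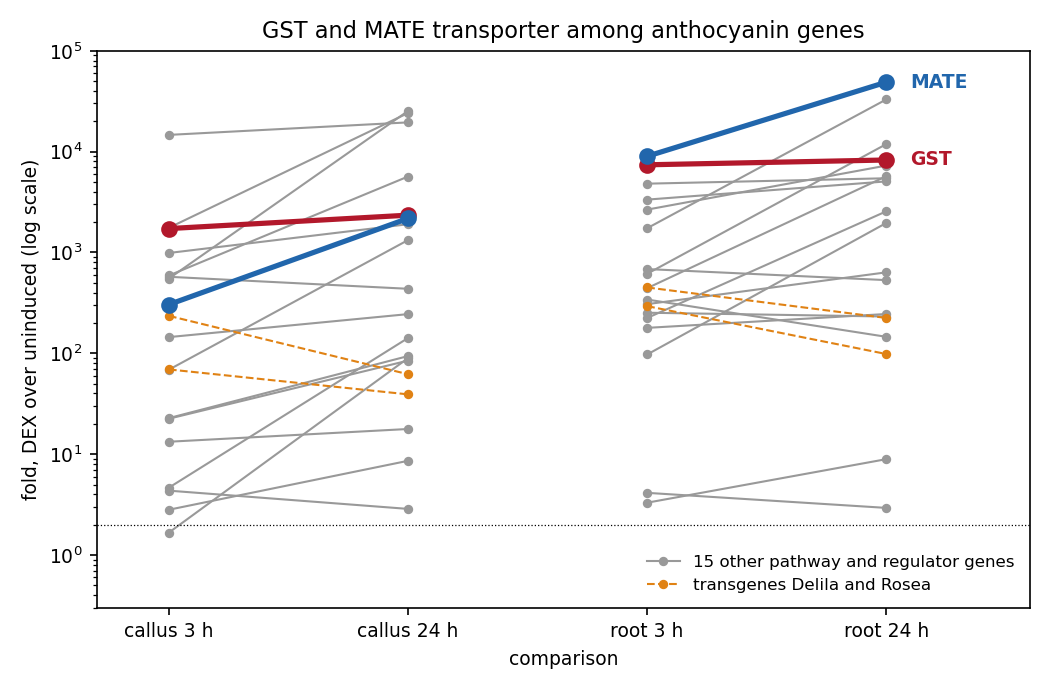
Fold of DEX-treated over uninduced samples (vertical axis, log scale) in the 4 comparisons (horizontal axis), by the authors' deposited table; each line joins the 3 h and 24 h folds of 1 gene in 1 tissue, and the dotted line marks a fold of 2. The GST (red) stays nearly level from 3 h to 24 h in both tissues, the MATE gene (blue) climbs from 305 to 2176 in callus and from 8993 to 48796 in roots, and the transgenes (orange) are lower at 24 h than at 3 h.

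The GST and the MATE gene followed different courses between 3 h and 24 h. Dividing the 24 h fold by the 3 h fold removes the uninduced level, provided both folds rest on the same uninduced value and scaling. The ratio then compares the induced times. How the columns were scaled is not stated. For the MATE gene the ratio was 7.14 in callus and 5.43 in roots, computed by the authors' deposited table. For the GST it was 1.36 and 1.12, under 2-fold in both tissues. Across all features, a ratio of at least 2 was found for 15% in callus and 26% in roots. The MATE gene had a larger ratio than 97.0% of all features in callus and 94.2% in roots, and the GST a larger one than 73.3% and 52.2%. Over the same interval the transgenes went down, with ratios of 0.566 and 0.498 for Delila and 0.264 and 0.335 for Rosea in callus and roots, by the authors' deposited table.

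The same contrast can be restated by setting one gene against the other. The fold of the MATE gene was 0.177 times that of the GST in callus at 3 h and 0.928 times in callus at 24 h, computed by the authors' deposited table. In roots it was 1.22 times that of the GST at 3 h and 5.91 times at 24 h. From 3 h to 24 h the MATE gene therefore gained on the GST by 5.25 times in callus and 4.86 times in roots. These 2 values follow from the 24 h to 3 h ratios already given and are no separate evidence. Whether these ratios exceed the spread between replicates could not be tested.

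The rest of the pathway gives a scale for these courses. Of 16 pathway and regulator genes listed by identifier, 15 were in the table, and Solyc03g115220, a flavonoid 3'-hydroxylase, was not among the features analysed here. Of these, 14 were higher in callus at 3 h and 15 in each other comparison, and 0 were lower in any. Of all features, 27.8%, 18%, 31.3% and 11.7% were higher and 23.4%, 21.5%, 44.6% and 21.9% lower. The list was chosen with earlier results of these data known. The median log2 fold of the 15 was 6.11 and 7.94 in callus at 3 h and 24 h and 8.42 and 10.94 in roots. Over all features it was 0, 0, -0.58 and -0.13. The GST had a smaller 24 h to 3 h ratio than 11 of the 15 in callus and 11 in roots. The MATE gene had a larger ratio than 9 of the 15 in callus and 10 in roots. Ratios near that of the GST belonged to dihydroflavonol 4-reductase (DFR, Solyc02g085020), which makes leucoanthocyanidins, at 1.33 and 1.13, and to flavanone 3-hydroxylase (F3H, Solyc02g083860), an early step, at 1.34 and 1.37, by the authors' deposited table.

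The MATE gene lay between this level group and the genes that climbed most. The chalcone isomerase-like gene CHIL (Solyc05g052240), whose product aids chalcone synthase, had ratios of 4.12 in callus and 2.07 in roots by the authors' deposited table. The anthocyanin O-methyltransferase AOMT (Solyc09g082660) had 9.58 and 20.1, and the bHLH regulator AN1 (Solyc09g065100), a partner of MYB proteins in switching on the late genes, had 19.3 and 11.4, by the authors' deposited table. F3'5'H (Solyc11g066580), the hydroxylase that commits the pathway to delphinidin-type pigments, had 45.9 and 18.9 by the authors' deposited table. All 5 genes with a larger root ratio than the MATE gene, namely AOMT, the 5-glucosyltransferase 5GT (Solyc12g098590), F3'5'H, chalcone synthase CHS1 (Solyc09g091510) and AN1, also had a larger ratio in callus. The second chalcone synthase, CHS2 (Solyc05g053550), had a larger one in callus only, at 53.6 against 2.73 in roots, by the authors' deposited table. Chalcone isomerase (CHI, Solyc05g010320) had ratios of 3.06 and 2.70, and anthocyanidin synthase (ANS, Solyc08g080040), which forms the coloured core, 1.69 and 0.917, both by the authors' deposited table. For the 3-glucosyltransferase 3GT (Solyc10g083440) the ratios were 0.761 and 0.777, and for the WD-repeat regulator AN11 (Solyc03g097340) 0.659 and 0.709, by the authors' deposited table. The MYB repressor MYB-ATV (Solyc07g052490) had 3.77 in callus and 0.427 in roots, so it stood above the GST in one tissue and below it in the other.

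**Figure D2:**
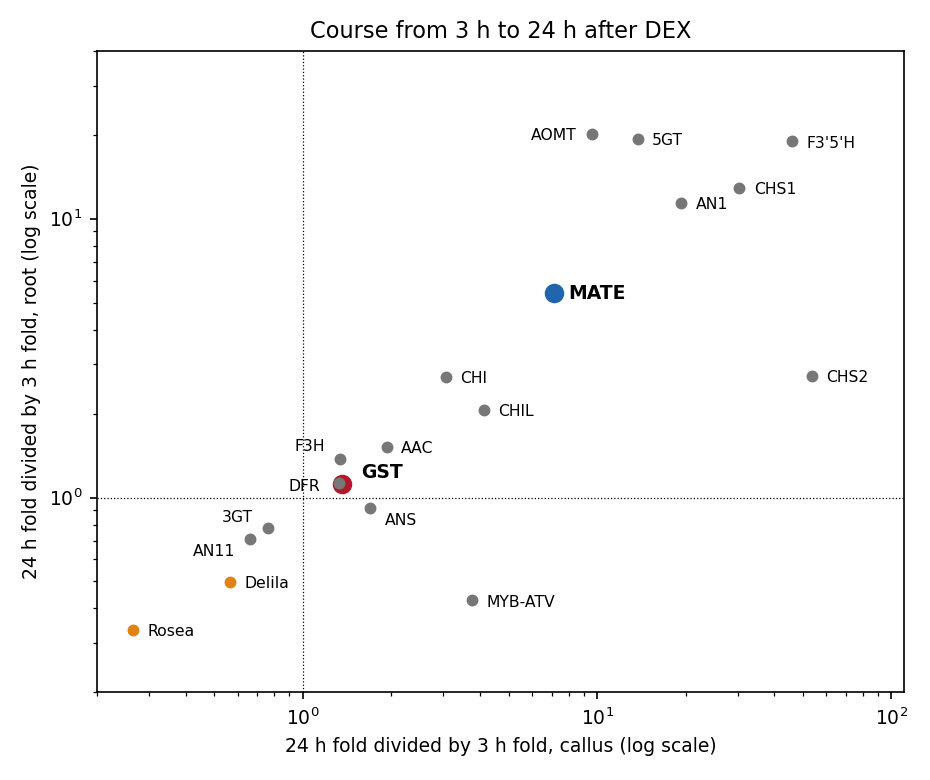
Ratio of the 24 h fold to the 3 h fold in callus (horizontal axis, log scale) and roots (vertical axis, log scale) for the GST, the MATE gene, 15 pathway and regulator genes and the transgenes, computed by the authors' deposited table; dotted lines mark a ratio of 1. The GST lies beside DFR close to 1 on both axes, and the MATE gene, at 7.14 and 5.43, lies between CHI or CHIL and the group of AOMT, 5GT, AN1, CHS1 and F3'5'H.

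Folds of both genes were larger in roots than in callus. The root fold was 4.29 times the callus fold for the GST at 3 h and 3.52 times at 24 h, computed by the authors' deposited table. For the MATE gene it was 29.5 times at 3 h and 22.4 times at 24 h. A root fold at least 2 times the callus fold was found for 19.1% of all features at 3 h and 12.5% at 24 h. The tissues have their own uninduced samples, so a larger fold can reflect a lower uninduced level in roots or a higher induced level, and the table does not separate these. The transgenes also had larger folds in roots, with Delila at 6.50 and 5.72 times its callus fold and Rosea at 1.25 and 1.59 times, computed by the authors' deposited table. The part of this in the members' folds was not tested.

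The direction between tissues was not shared by the whole pathway. Of the 15 pathway and regulator genes, 11 had a larger fold in roots at 3 h and 11 at 24 h. The share of all features with any larger fold in roots was not computed, so these counts have no background. Only CHS1 and CHS2 had a larger root to callus ratio than the MATE gene, at 94.9 and 1590 times at 3 h and 40.1 and 81.0 times at 24 h, computed by the authors' deposited table. Against this, DFR had a root fold 0.328 times its callus fold at 3 h and 0.279 times at 24 h, and AOMT 0.165 and 0.346 times. The 5GT also had a smaller fold in roots, at 0.350 and 0.492 times its callus fold.

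The features with the most similar folds to those of the GST and the MATE gene were other pigment genes. Likeness was measured as the Euclidean distance of log2 folds over the 4 comparisons, among the 221 features higher in all 4. This distance largely follows the size of the folds, and few features had folds as large. The 4 comparisons share uninduced samples within a tissue, so they are not independent points. Nearest to the GST was the anthocyanin acyltransferase AAC (Solyc12g088170), which attaches an acyl group to the pigment's sugars, at a distance of 1.60. It stood at 989-fold, 1907-fold, 3343-fold and 5066-fold, in the order callus 3 h, callus 24 h, root 3 h and root 24 h, by the authors' deposited table. The MATE gene came next at 3.59, followed by DFR at 4.43, F3'5'H at 4.78 and 5GT at 4.95. Nearest to the MATE gene was the GST, then AAC at 3.95, F3'5'H at 4.38, 5GT at 6.13 and an anthocyanidin 3-O-glucosyltransferase (Solyc09g059170) at 7.15.

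Once each gene's mean over the 4 comparisons was subtracted, the neighbours differed. This step removes the mean size of the folds but keeps the width of their span. The 5 nearest to the GST were a homeobox-leucine zipper protein named PROTODERMAL FACTOR 2 (Solyc03g098200), a receptor-like protein kinase (Solyc08g068250), AAC, a calmodulin-like protein (Solyc04g058170) and a glucose-6-phosphate/phosphate translocator (Solyc02g086650), at distances of 0.512, 0.573, 0.605, 0.605 and 0.648. The kinase stood at 21.5-fold, 32.1-fold, 63.5-fold and 75.5-fold in the usual order by the authors' deposited table, the GST's course at smaller folds. The nearest to the MATE gene were CHIL at 1.82, CHS1 at 2.14 and F3H at 2.39, then a heme-binding protein 2 (Solyc07g061800) and a male sterility 5 family protein (Solyc06g007970), both at 2.96. By this measure the GST was in place 10 for the MATE gene, and the MATE gene in place 192 of 220 for the GST. By Pearson correlation, which also sets the span aside, the MATE gene was in place 11 for the GST. The GST was in place 10 for the MATE gene by correlation.

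Other GSTs were higher far more modestly. Plant GSTs are a large family, most of which detoxify foreign or oxidised compounds and respond to stress. The table names 39 features as GSTs by description, 38 of them besides Solyc02g081340. Of the 38, callus at 3 h had 22 higher and 4 lower, and callus at 24 h 9 and 1. Roots at 3 h had 22 higher and 9 lower, or 26 and 3 once log2 folds are centred on the median of all features, and roots at 24 h 7 and 4. The shares higher, in the order of comparisons, were 57.9%, 23.7%, 57.9% and 18.4%, against 27.8%, 18%, 31.3% and 11.7% of all features, and the shares lower 10.5%, 2.63%, 23.7% and 10.5%, against 23.4%, 21.5%, 44.6% and 21.9%. Their median log2 fold was 1.06, 0.52, 1.10 and 0.38. The features here are a selected table, so unchanged family members are not counted. Centring shifts all features alike, and the centred shares of all features were not computed for this or any later list.

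The next highest GST in callus was Solyc10g084960, at 9.63-fold at 3 h and 6.52-fold at 24 h by the authors' deposited table. In roots it was Solyc05g006730, at 15.005-fold at 3 h and 13.2-fold at 24 h by the authors' deposited table. The anthocyanin GST's fold was 179 and 360 times the next in callus, and 493 and 628 times in roots. Of the other 38 GSTs, 3 were higher in all 4 comparisons, Solyc06g009020, Solyc07g056510 and Solyc10g084960, beside 4.17% of all features. Solyc07g056510 stood at 7.04-fold, 3.38-fold, 8.66-fold and 3.20-fold and Solyc06g009020 at 4.55-fold, 3.45-fold, 5.56-fold and 2.60-fold by the authors' deposited table. Each of the 3 had a smaller fold at 24 h than at 3 h in both tissues, while the anthocyanin GST had a larger one. In roots the anthocyanin GST's ratio was only 1.12, and centring the columns turned its log2 value from 0.16 to -0.29. The median 24 h to 3 h ratio of the 38 was 0.750 in callus and 0.691 in roots, against 0.941 and 1.04 for all features.

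A few GSTs went in opposite directions in the tissues. Solyc05g006730, the next highest in roots, was listed at 3.45-fold lower in callus at both times by the authors' deposited table, and identical folds of this kind may rest on few reads. Solyc03g116120 was 5.26-fold and 3.34-fold higher in callus at 3 h and 24 h by the authors' deposited table. In roots the authors' deposited table gave it as 1.42-fold below the uninduced level at 3 h, which is under the 2-fold limit, and 2.25-fold lower at 24 h. The lowest GST values were in roots, with Solyc12g011300 at 25.1-fold lower at 3 h and Solyc10g007640 at 9.27-fold lower at 3 h and 6.51-fold lower at 24 h by the authors' deposited table.

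The MATE family showed no common direction. Of the 28 listed members besides Solyc03g025190, callus at 3 h had 6 higher and 6 lower, and callus at 24 h 4 and 4. Roots at 3 h had 9 higher and 13 lower, which turned to 10 and 6 once the column was centred. Roots at 24 h had 1 higher and 6 lower, or 1 and 3 with centring. No centred shares of all features are at hand to set beside these. The shares higher were 21.4%, 14.3%, 32.1% and 3.57%, against 27.8%, 18%, 31.3% and 11.7% of all features, and the shares lower 21.4%, 14.3%, 46.4% and 21.4%, against 23.4%, 21.5%, 44.6% and 21.9%. Their median log2 fold was 0, 0, -0.82 and -0.29. Of the 28, 1 gene, Solyc03g063730, was higher in all 4 comparisons, beside 4.17% of all features. Solyc03g063730 stood at 4.17-fold, 4.81-fold, 2.99-fold and 4.57-fold by the authors' deposited table. It was the next highest MATE gene at 24 h in both tissues, where the fold of Solyc03g025190 was 453 times its fold in callus and 10677 times in roots. At 3 h the next highest were Solyc08g080310 in callus, at 5.24-fold, and Solyc04g076950 in roots, at 15.4-fold, by the authors' deposited table. Neither stood 2-fold higher in the same tissue at 24 h. Solyc08g080310 was at exactly 1 in callus and Solyc04g076950 1.20-fold below the uninduced level in roots, by the authors' deposited table. Among the lowest were Solyc11g016970, 7.56-fold lower in roots at 3 h, and Solyc07g008410, 3.57-fold and 3.34-fold lower in roots at 3 h and 24 h, by the authors' deposited table. In callus Solyc07g008410 was at exactly 1 at 3 h and 4.24-fold higher at 24 h by the authors' deposited table.

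**Figure D3:**
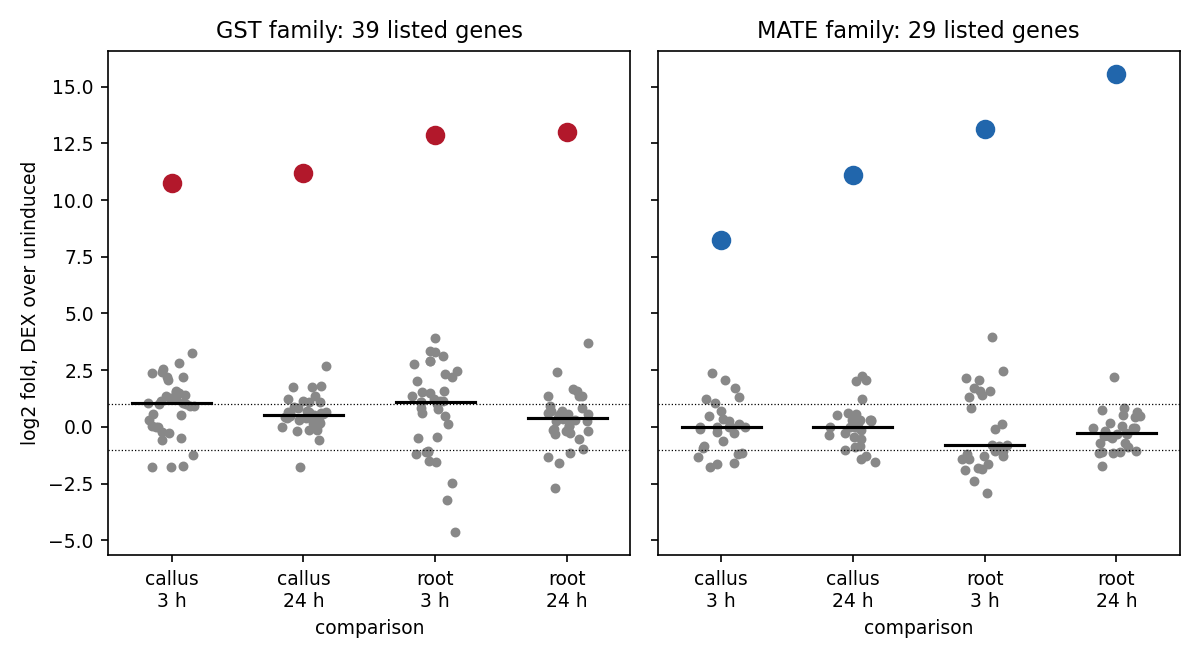
Log2 fold of DEX-treated over uninduced samples (vertical axis) in the 4 comparisons (horizontal axis) for the GSTs (left) and MATE genes (right) named by description by the authors' deposited table; grey points are other family members, black bars their median, dotted lines a 2-fold change, and the horizontal scatter within a comparison has no meaning. The anthocyanin GST (red) and the MATE gene (blue) stand above all other members of their families in all 4 comparisons, at log2 folds from 8.25 to 15.57.

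Genes with nearby locus numbers did not share these folds. Numbers in tomato identifiers follow the order of genes along a chromosome. A window of 500 on either side held 19 other listed features around the GST and 14 around the MATE gene. Those 14 all had higher numbers than the MATE gene. Around the GST, callus at 3 h had 4 higher and 5 lower and callus at 24 h 3 and 3, while roots had 12 and 4 at 3 h and 3 and 2 at 24 h. The shares higher were 21.1%, 15.8%, 63.2% and 15.8%, against 27.8%, 18%, 31.3% and 11.7% over all features, and the shares lower 26.3%, 15.8%, 21.1% and 10.5%, against 23.4%, 21.5%, 44.6% and 21.9%. The adjacent number, Solyc02g081330, described as phytoene synthase 2 of carotenoid synthesis, stood at 2.64-fold, 2.18-fold, 1.88-fold and 1.60-fold by the authors' deposited table. A microsomal GST of an unrelated protein type (Solyc02g081430) stood at 3.04-fold, 1.44-fold, 4.61-fold and 1.20-fold by the authors' deposited table. The GST family counts, made by description, include this gene.

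Among the listed features the MATE gene is followed by 2 further MATE genes, Solyc03g025210 and Solyc03g025230. Genes outside the table may lie between them. In the usual order the first stood 1.77-fold, 2.90-fold, 1.75-fold and 2.17-fold below the uninduced level by the authors' deposited table. The second stood 1.56-fold, 1.27-fold, 2.32-fold and 1.39-fold below it by the authors' deposited table. Both were thus under the uninduced level in all 4 comparisons. The first passed 2-fold at 24 h and the second in roots at 3 h, while Solyc03g025190 was at least 305-fold higher in each comparison. How reads shared by similar neighbours were counted is not stated in the labels or headers. Around the MATE gene, callus at 3 h had 3 of 14 features higher and 1 lower and callus at 24 h 3 and 3, while roots had 6 and 6 at 3 h and 4 and 2 at 24 h, or 6 and 4 and then 4 and 1 with centring. The shares higher of these 14 were 21.4%, 21.4%, 42.9% and 28.6%, beside 27.8%, 18%, 31.3% and 11.7% of all features, and the shares lower 7.14%, 21.4%, 42.9% and 14.3%, beside 23.4%, 21.5%, 44.6% and 21.9%. A cytochrome P450 (Solyc03g025640) was the highest of them in roots at 3 h, at 263-fold, and stood at 5.51-fold in roots at 24 h and at 5.27-fold and 4.20-fold in callus, by the authors' deposited table. The highest in callus was Solyc03g025430, at 13.7-fold and 16.6-fold, which in roots at 3 h was 7.88-fold lower, by the authors' deposited table. A hydroxycinnamoyl transferase (Solyc03g025320), the highest in roots at 24 h, stood at 6.05-fold and 6.88-fold in roots and under 2-fold in callus, at 1.41-fold and 1.45-fold, by the authors' deposited table.

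**Figure D4:**
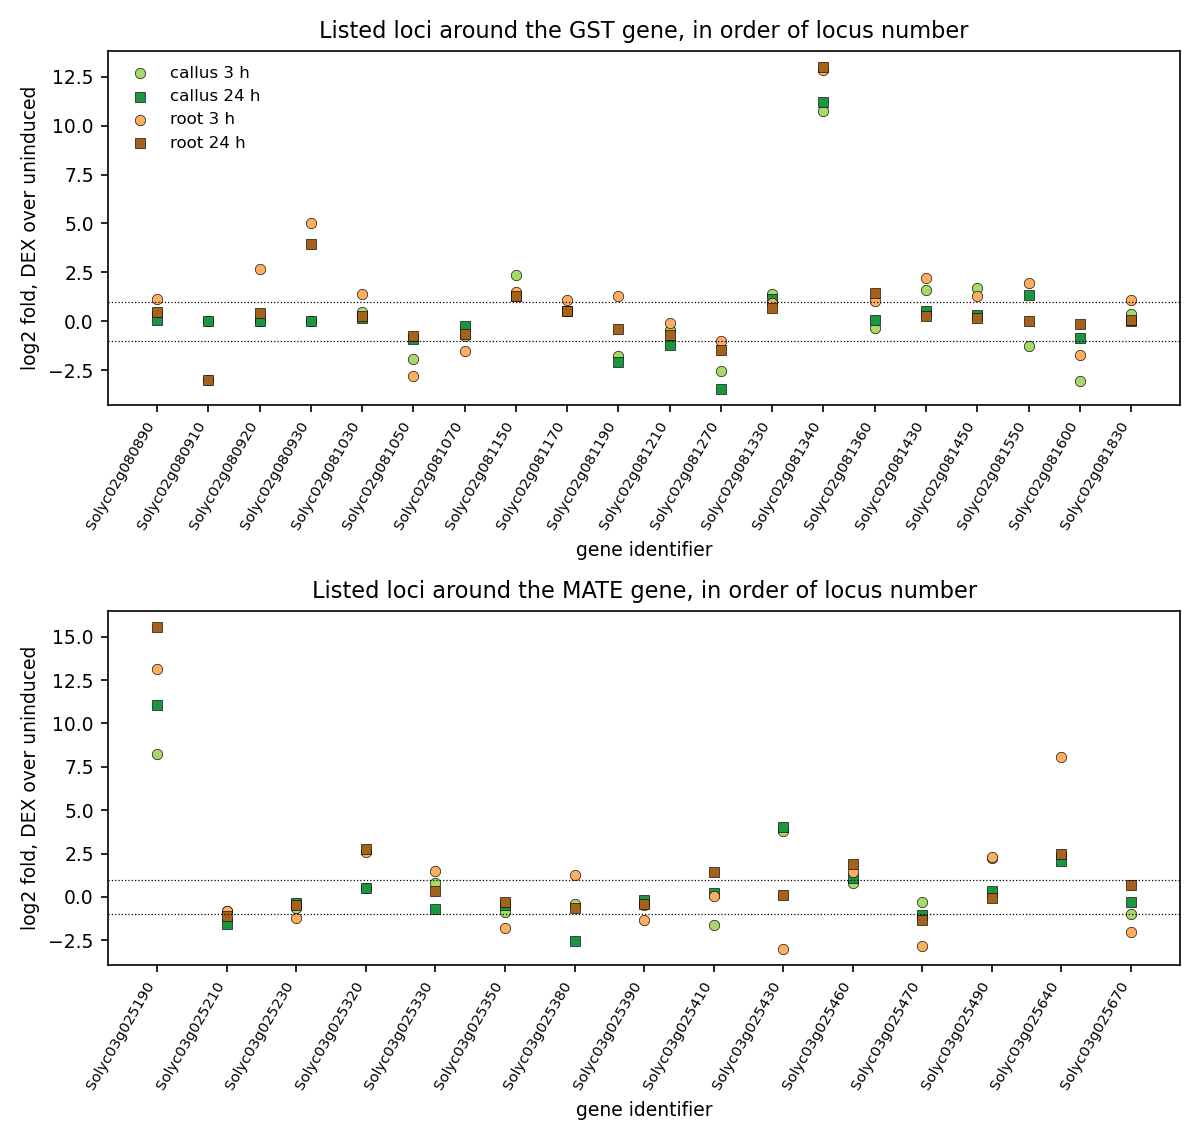
Log2 fold of DEX-treated over uninduced samples (vertical axis) of the features whose locus number lies within 500 of the GST (top) or the MATE gene (bottom), in order of identifier (horizontal axis), by the authors' deposited table; circles are 3 h, squares 24 h, green callus and brown or orange roots, and dotted lines mark a 2-fold change. The GST and the MATE gene stand alone, with a cytochrome P450 (Solyc03g025640) at 263-fold in roots at 3 h as the highest of the others. The 2 MATE genes listed directly after Solyc03g025190 lie below 0 in all comparisons.

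Other routes by which flavonoids can reach the vacuole were also counted. ABC transporters use ATP to pump substrates, and members of their multidrug resistance class carry anthocyanins in maize and grape. Of 55 listed ABC transporters, callus at 3 h had 16 higher and 12 lower, and callus at 24 h 13 and 9. Roots had 21 and 19 at 3 h and 9 and 10 at 24 h, and with columns centred on their median 28 and 5 and 13 and 9. Centring moves all features too, and their centred shares were not computed. Without centring the shares higher were 29.1%, 23.6%, 38.2% and 16.4%, beside 27.8%, 18%, 31.3% and 11.7% of all features, and the shares lower 21.8%, 16.4%, 34.5% and 18.2%, beside 23.4%, 21.5%, 44.6% and 21.9%. The 3 described as of the multidrug resistance family were each under 2-fold in 3 of the 4 comparisons. Solyc09g075020 was 2.04-fold higher in roots at 3 h, Solyc08g081890 4.01-fold lower in roots at 3 h and Solyc12g044820 2.18-fold lower in callus at 3 h by the authors' deposited table. The highest ABC folds belonged to features described otherwise. The G family member Solyc12g098210 stood at 186-fold and then 52.6-fold in callus, and 7.38-fold and then 3.52-fold in roots, by the authors' deposited table. Solyc03g122050, described as an uncharacterized ABC transporter, stood at 30.7-fold, 26.2-fold, 4.20-fold and 5.345-fold in the usual order by the authors' deposited table. A second G family member, Solyc01g105450, stood at 153-fold in roots at 24 h and 6.82-fold at 3 h by the authors' deposited table.

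Proton pumps acidify the vacuole and so drive MATE exchange. One was found by description, a pyrophosphate-energized proton pump (Solyc01g100390), which stood at 2.82-fold and 1.63-fold in callus and 2.14-fold in roots at 3 h by the authors' deposited table. At 24 h in roots the authors' deposited table gave it as 1.60-fold below the uninduced level.

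The glutathione and redox list held 22 features, with 8 higher and 0 lower for callus at 3 h and 3 and 4 for callus at 24 h. Roots had 9 and 9 at 3 h and 0 and 3 at 24 h, and with centring 11 and 4 and 1 and 2. Centred shares of all features were not computed. The shares of this list that were higher came to 36.4%, 13.6%, 40.9% and 0%, beside 27.8%, 18%, 31.3% and 11.7% of all features, and those lower to 0%, 18.2%, 40.9% and 13.6%, beside 23.4%, 21.5%, 44.6% and 21.9%. Its glutathione synthetase (Solyc01g098610), the last enzyme of glutathione synthesis, stood at 2.28-fold, 1.22-fold, 1.27-fold and 1.14-fold by the authors' deposited table. The highest member was a glutaredoxin (Solyc02g077580), a small protein that reduces disulfides with glutathione, at 23.5-fold in callus at 3 h and 6.47-fold in roots at 3 h by the authors' deposited table. Another 2 glutaredoxin family proteins were the lowest in roots at 3 h, Solyc11g006430 at 10.9-fold and Solyc08g083270 at 9.50-fold lower by the authors' deposited table. Vesicle trafficking, a further route proposed for anthocyanins, had 22 features, 2 of them known only by a prenylated rab acceptor domain, with 11 higher and 5 lower for callus at 3 h and 3 and 5 for callus at 24 h. Roots had 13 and 7 at 3 h and 3 and 5 at 24 h, the latter 4 and 4 with centring. Of the trafficking features 50.0%, 13.6%, 59.1% and 13.6% were higher, beside 27.8%, 18%, 31.3% and 11.7% of all features, and 22.7%, 22.7%, 31.8% and 22.7% lower, beside 23.4%, 21.5%, 44.6% and 21.9%. A SNAP33 homologue (Solyc06g069570) of vesicle fusion stood at 4.64-fold, 2.18-fold, 2.62-fold and 1.48-fold by the authors' deposited table. The syntaxin Solyc01g109750 was 13.8-fold lower in roots at 3 h by the authors' deposited table. In none of these lists did a member reach the folds of the GST or the MATE gene in the same comparison.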

How the data were processed

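Polyadenylated RNA from callus and roots was sequenced as stranded paired-end libraries, per the labels' protocols. Per the submitters' processing notes, CASAVA 1.8.1 was among the tools. For the aligner, build, counting and normalization, nothing further is given in the sources used here. Per the file headers, CLC bio output was deposited as a signed fold score for each of 4 comparisons, with the same fold as a linear ratio and as its log10. The 2 deposited copies differed by 0. Replicate values and p-values were not analysed here, so the planned summaries are descriptions: folds, log2 folds of the authors' ratios, places, ratios of folds, distances and counts at a 2-fold limit. Whether replicates came from separate plants or cultures, and when uninduced samples were taken, is not stated.

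The GST and MATE gene were matched by identifier. Family lists were matched by words in the table's descriptions, protein domain names included, and pathway genes by identifier, with short names such as DFR taken from those lists. The members and lists were chosen with earlier results of these data known. Named were both genes, their 5 nearest features by each distance, the pathway genes with an identifier, the extremes of each family list and loci within a window of 500. Where a list's extremes were many, only some are printed. The ABC multidrug resistance members, the glutathione synthetase, the SNAP33 homologue, Solyc06g009020, Solyc07g056510 and Solyc03g116120 were named after their values were seen or because they do the list's work. The RefSeq gene table matched 0 identifiers. Alternatives were a 4-fold limit, no limit, columns centred on their median, other columns, Pearson correlation, and removal of features with a fold of exactly 1 or repeated folds. Python 3.11.15, numpy 2.4.6, pandas 2.3.3 and matplotlib 3.10.9 were used, and the counting and distance steps were tested on simulated data.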

Additional observations from a re-analysis of the deposited data

How the results depend on the processing

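With each column of log2 folds centred on its median, both genes stayed higher in all 4 comparisons. The medians were 0 in callus and -0.58 and -0.13 in roots, so centring could not have changed these calls. The log10 column and the other deposited copy hold the same folds, so they are no separate check. Leaving out 538 callus and 48 root features of exact or repeated folds kept every place of the GST and the MATE gene. Centring turned the GST's 24 h to 3 h ratio in roots from a log2 value of 0.16 to -0.29, both under 2-fold, because the root columns have different medians. The other ratios kept their direction and their side of 2-fold. By Pearson correlation 0 of the 5 nearest features to the GST and 1 of the 5 to the MATE gene by distance were found again, and 3 and 2 of those by distance with means subtracted.

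Family counts, the GST and MATE gene included, moved with the limit. The shares of all features at 4-fold, with no limit and with centring were not computed. The counts below therefore cannot be set against the table as a whole. At 4-fold the GSTs had 9, 2, 12 and 3 higher and 0, 0, 3 and 1 lower in callus 3 h, callus 24 h, root 3 h and root 24 h. With no limit they had 29, 31, 28 and 27 higher and 8, 6, 11 and 12 lower. MATE genes had 3, 4, 5 and 2 higher and 0, 0, 2 and 0 lower at 4-fold, and 12, 14, 12 and 10 higher and 12, 11, 17 and 19 lower with no limit. With centred columns 3 GSTs and 6 MATE genes were lower in roots at 3 h, and 3 MATE genes at 24 h, and 27 GSTs and 11 MATE genes were higher in roots at 3 h. Among ABC transporters centring gave 28 higher and 5 lower in roots at 3 h. No paired analysis was possible because no values per library were analysed, and leaving out a replicate was not run for the same reason. The depth behind a fold is unknown.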
